A study of Rattus norvegicus with 9 samples.

Results

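The ephrin A ligands and EphA receptors were followed in 3 types of cultured rat fibroblasts (Fb), as the rows of the deposited gene table whose symbol is *Efna1*, *Efna2*, *Efna3*, *Efna4*, *Efna5*, *Epha2*, *Epha3*, *Epha4*, *Epha5* or *Epha7*. These are 10 of 32883 genes, with 5 ligands and 5 receptors. Fb-Epn were derived from the epineurium and Fb-Par from the parenchyma of the sciatic nerves of 2 male wild-type Lewis rats, and Fb-Skn from abdominal skin taken from 1 further male of that strain; all rats were 10 weeks old. The dissociated cells were grown in medium with fetal bovine serum and passaged once before poly(A) RNA was sequenced, with 3 libraries per type. Since each type came from 1 or 2 rats, the 3 libraries of a type are not 3 separate animals. The SD and p-values below describe the spread between these samples, which may be technical. For Fb-Skn against the nerve-derived Fb, the tissue, the rat and the body site all differ, and their parts cannot be told apart.

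Ephrin A proteins are held on the outer face of the membrane by a lipid (GPI) anchor, and EphA proteins are receptor tyrosine kinases on the facing cell. Contact sends a forward signal into the receptor-bearing cell and a reverse signal into the ligand-bearing cell. The system is best known for repelling growth cones and for sorting cells at tissue borders. As both sides are tied to the membrane, it acts mainly by contact, although ligands can also be shed by proteases.

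Total counts per library ranged from 10084584 to 12310506. Levels are given as TPM (transcripts scaled to the same total in every library), a measure per length that allows different genes to be set side by side. edgeR's quasi-likelihood test compared the types on the counts, in 1 model of all 9 libraries. A gene was called where its p, adjusted by Benjamini-Hochberg, was under 0.01, and was named a DE gene where its log2 fold change also lay outside -2 to 2. Fibroblast markers (6 analysed, with *Col1a1* and *Thy1*) summed to 25824 to 31195 TPM in every library. Transcripts listed as markers of other cell types were also counted in all 3 types. The Schwann cell, macrophage and leukocyte, and endothelial sums were higher in both nerve-derived types than in Fb-Skn. The pericyte and smooth muscle sum and the perineurial sum were each higher in only 1 of them. Of the 6 Schwann cell markers analysed, none was at 0 in Fb-Epn or Fb-Par. Their sum was 156 to 170.5 TPM in Fb-Epn, 191 to 199 in Fb-Par and 9.82 to 12.6 in Fb-Skn, where *Sox10*, *Erbb3* and *Cdh19* had no count. The 6 macrophage and leukocyte markers summed to 188 to 204 TPM in Fb-Epn, 41.0 to 44.5 in Fb-Par and 8.97 to 11.1 in Fb-Skn. The 6 endothelial markers summed to 15.01 to 15.7, 10.4 to 11.8 and 1.004 to 1.604 TPM in the same order, with *Cdh5* and *Emcn* at 0 in Fb-Skn. The 6 pericyte and smooth muscle markers summed to 42.6 to 49.2, 318 to 334 and 150 to 155 TPM, with *Rgs5* and *Kcnj8* at 0 in Fb-Skn. The 3 perineurial markers summed to 156 to 163, 41.3 to 46.7 and 75.3 to 84.1 TPM, with *Cldn1* at 0 in Fb-Skn. The 5 keratinocyte markers summed to 2.17 to 4.36 TPM over all libraries, with *Krt15* at 0 in each. In these bulk samples fewer cells of a type and less RNA per cell cannot be told apart.

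*Epha7* and *Epha4* were higher in Fb-Skn than in both nerve-derived types, *Epha3* was higher in both nerve-derived types, *Epha2* was highest in Fb-Epn, and *Efna5* was lowest in Fb-Par. *Efna1*, *Efna2* and *Efna4* were called in no comparison. Of the 8 members with enough counts to be tested, 4 were called in Fb-Epn against Fb-Skn, 3 in Fb-Epn against Fb-Par and 4 in Fb-Par against Fb-Skn. *Efna3* and *Epha5* had too few counts. Over all 13273 tested genes, the share called was 43.9%, 38.8% and 45.6% in these comparisons, so the shares of the members (50.0%, 37.5% and 50.0%) lie near the background. In the 3 comparisons, 4, 2 and 3 of the 4 tested receptors and 0, 1 and 1 of the 4 tested ligands were called. The ligand was *Efna5* each time. The tested ligands had 121 to 772 counts in total and the tested receptors 594 to 1905. In Fb-Epn against Fb-Skn, 0 ligands were called in edgeR, DESeq2 or limma, and 0 had an unadjusted p under 0.05 in any of them. Whether ligands and receptors differ in this was not tested. DE genes numbered 2 in Fb-Epn against Fb-Skn, 0 in Fb-Epn against Fb-Par and 2 in Fb-Par against Fb-Skn, where 8.44%, 6.48% and 8.54% of all tested genes were DE. In the first, *Epha3* was the higher one (6.22% of all genes) and *Epha7* the lower one (2.22%). In the second, 4.09% of all genes were higher and 2.39% lower. In the third, *Epha3* was higher (5.86%) and *Efna5* lower (2.67%). For Fb-Epn against Fb-Par, 4 members had an unadjusted p under 0.05 in edgeR, and DESeq2 called 4 and also found 0 DE genes. The median absolute log2 fold change of the 8 members was 0.78, 0.58 and 0.89 in the 3 comparisons, against 0.33, 0.28 and 0.34 over all tested genes. Counting noise adds to this measure at low counts, and the members were not set against genes of similar level. The tested members had modest average levels, and *Epha5* was close to undetected, with 3 counts in all. Averaged over the 9 libraries, the tested members lay between 2.07 TPM (*Epha3*) and 14.1 TPM (*Epha7*), all under the median of 18.9 TPM over all tested genes.

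**Figure D1:**
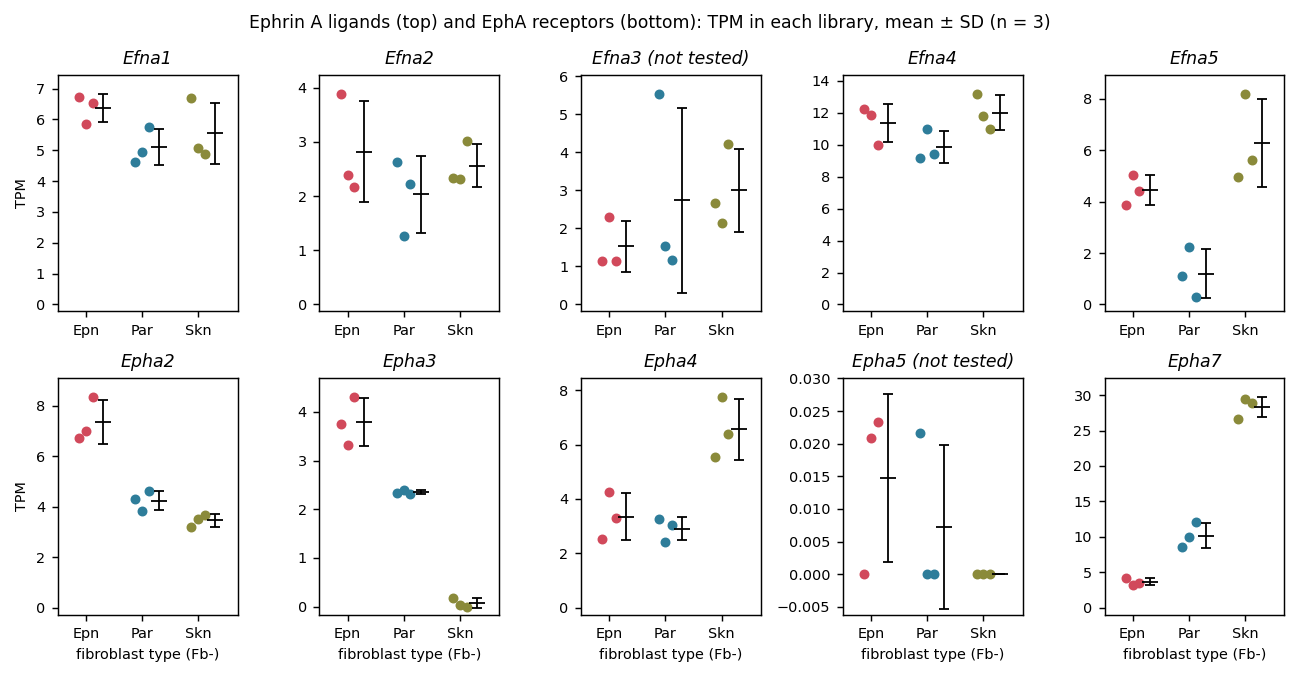
TPM of each ephrin A ligand (top) and EphA receptor (bottom) for the 3 types, where points are single libraries and the bar beside them is the mean ± SD (n = 3). *Epha7* rises from Fb-Epn to Fb-Skn while *Epha3* falls to near 0 in Fb-Skn, and the type means of *Efna1*, *Efna2* and *Efna4* lie closer together. The vertical scale differs between panels.

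*Epha7* (ENSRNOG00000007030, chromosome 5 of rn6, 43603043 to 43757549), a receptor known from the patterning of neural projections, was highest in Fb-Skn. Its TPM was 26.7, 29.4 and 28.9 in the 3 Fb-Skn libraries, 8.58, 9.92 and 12.03 in Fb-Par, and 4.18, 3.23 and 3.55 in Fb-Epn. No library of one type reached into the range of another, so the order Fb-Skn, Fb-Par, Fb-Epn held in every library. Such separation was common, as 61.4% of all tested genes did not overlap between Fb-Epn and Fb-Skn, 57.3% between Fb-Epn and Fb-Par, and 61.7% between Fb-Par and Fb-Skn. Fb-Skn exceeded Fb-Epn 8.55-fold (95% interval 7.02 to 10.4, log2 fold change of Fb-Epn against Fb-Skn -3.10, standard error 0.13, adjusted p = 5.9e-11, edgeR), which made *Epha7* a DE gene. Fb-Skn exceeded Fb-Par 3.09-fold (2.599 to 3.68, adjusted p = 2.0e-08, edgeR), and Fb-Par exceeded Fb-Epn 2.76-fold (2.24 to 3.41, adjusted p = 5.9e-07, edgeR). Neither of these steps passed the DE threshold. With 416 to 436 counts per Fb-Skn library and 54 to 63 per Fb-Epn library, it was the member with the most counts. Over the 9 fits that left out 1 library, the log2 fold change of Fb-Epn against Fb-Skn stayed within -3.20 to -3.01.

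*Epha3* (ENSRNOG00000030285, chromosome 11, 421135 to 782954) had the opposite pattern and was close to undetected in Fb-Skn. EphA3 is a receptor found on mesenchymal cells and motor axons, and it binds ephrin-A5 among others. The TPM was 3.75, 3.32 and 4.31 in Fb-Epn (116, 116 and 135 counts) and 2.34, 2.40 and 2.31 in Fb-Par (79, 70 and 71 counts). In Fb-Skn it was 0.179, 0.0341 and 0, from 6, 1 and 0 counts. All 6 nerve-derived libraries stood clear of the 3 Fb-Skn libraries. The fitted excess over Fb-Skn was 43.5-fold in Fb-Epn (95% interval 23.8 to 79.5, log2 fold change 5.44, standard error 0.41, adjusted p = 3.5e-08, edgeR). In Fb-Par it was 26.8-fold (14.2 to 50.3, log2 fold change 4.74, standard error 0.42, adjusted p = 2.4e-07, edgeR). The size rests on 7 counts in Fb-Skn, 6 of them in library 1. Without that library the log2 fold changes were 7.39 and 6.69, and without any other single library they were 4.90 to 5.53 and 4.20 to 4.76. Both values without library 1 lie above the upper ends of the intervals, which are 6.31 and 5.65 on the log2 scale. The Fb-Epn libraries were all above the Fb-Par libraries, by a log2 fold change of 0.70 (standard error 0.25), but the adjusted p was 0.029 in edgeR and the difference was not called. Among 17 alternative fits it was under 0.01 in 5, with a range of 0.0025 to 0.15 and a value of 0.0052 in DESeq2. The sums of the Schwann cell, macrophage and endothelial markers given above were likewise lowest in Fb-Skn, and the latter pair had the order of *Epha3*. Single markers could differ from their sum, as *Tek* was highest in Fb-Par (10.2 TPM, 8.37 in Fb-Epn) and *Cd163* lowest there (0.0713 TPM, 0.279 in Fb-Skn). The part of these cell types in the result was not tested.

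*Epha2* (ENSRNOG00000009222, chromosome 5, 159845774 to 159874206), the EphA receptor best known from epithelia and tumour cells, was highest in Fb-Epn. Its TPM was 6.72, 6.98 and 8.35 in Fb-Epn, 4.29, 3.83 and 4.61 in Fb-Par, and 3.19, 3.49 and 3.68 in Fb-Skn. The Fb-Epn libraries lay apart from all others, while Fb-Par and Fb-Skn lay next to each other. Fb-Epn exceeded Fb-Skn 1.93-fold (95% interval 1.57 to 2.38, adjusted p = 4.5e-05, edgeR) and Fb-Par 1.74-fold (1.42 to 2.14, adjusted p = 2.0e-04, edgeR). Between Fb-Par and Fb-Skn the fold was 1.11 (0.893 to 1.38, adjusted p = 0.41, edgeR), and at 65 to 92 counts per library the 2 types were not told apart. Their TPM did not overlap, but TPM lacks the normalization of the fit. On log2(TPM + 1) the median log2 fold change of all tested genes was 0.12 for Fb-Par against Fb-Skn. The macrophage, endothelial and perineurial marker sums were highest in Fb-Epn too, although the single markers *Tek* and *Cldn1* were highest in Fb-Par. The part of these cell types in the *Epha2* levels was not tested.

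*Epha4* (ENSRNOG00000013213, chromosome 9, 83111222 to 83253458), which binds ligands of both the A and the B class, was highest in Fb-Skn. The TPM was 5.53, 7.76 and 6.38 in Fb-Skn, 2.51, 4.25 and 3.29 in Fb-Epn, and 3.25, 2.43 and 3.03 in Fb-Par. Both nerve-derived types lay under every Fb-Skn library and overlapped each other. Fb-Skn exceeded Fb-Epn 2.14-fold (95% interval 1.64 to 2.79, adjusted p = 1.1e-04, edgeR) and Fb-Par 2.49-fold (1.90 to 3.27, adjusted p = 2.3e-05, edgeR). Fb-Epn against Fb-Par gave 1.16-fold (0.878 to 1.54, adjusted p = 0.37, edgeR). *Epha5* (ENSRNOG00000002024, chromosome 14, 25589762 to 25958227), a receptor of brain neurons, had 3 counts in all 9 libraries together, 2 in Fb-Epn and 1 in Fb-Par, and was not tested.

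The receptor mixture differed in make-up from type to type, and its summed level stood apart only in Fb-Skn. The summed TPM of the 5 receptors was 18.2 ± 1.22 in Fb-Epn, compared with 19.7 ± 2.00 in Fb-Par and 38.4 ± 2.59 in Fb-Skn (SD, n = 3 each). In Fb-Epn, *Epha2* made up 40.4% ± 2.08 (SD, n = 3) of this sum and *Epha3*, *Epha4* and *Epha7* each 18.5% to 20.9%. In Fb-Par, *Epha7* made up 51.5% ± 4.46 and *Epha2* 21.6% ± 1.41 (SD, n = 3 each). In Fb-Skn, *Epha7* alone made up 73.8% ± 1.42, and *Epha2* 8.99% ± 0.422 (SD, n = 3 each). The receptor with the highest level per length was thus *Epha2* in every Fb-Epn library and *Epha7* in every Fb-Par and Fb-Skn library. These sums and shares are descriptions with no test.

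**Figure D2:**
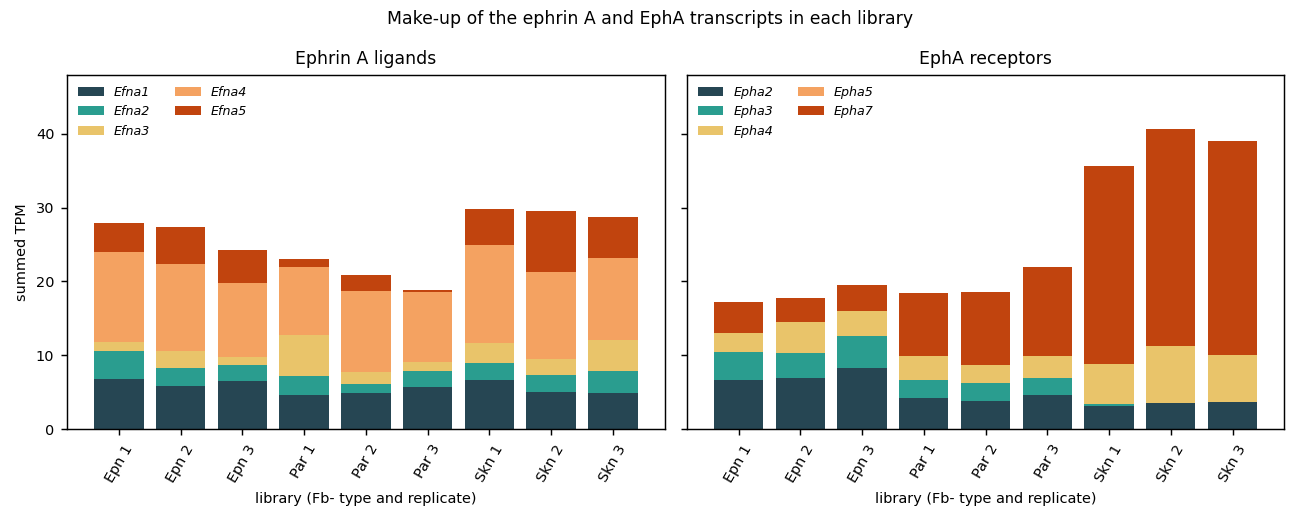
Stacked TPM of the 5 ephrin A ligands (left) and the 5 EphA receptors (right) in each of the 9 libraries. The receptor column is highest in the 3 Fb-Skn libraries (35.6 to 40.7 TPM), where most of it is *Epha7*, while the ligand column lies between 18.8 and 29.9 TPM in every library.

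Of the ligands, *Efna5* (ENSRNOG00000034177, chromosome 9, 110057155 to 110225486) was the one called between types. Ephrin-A5 is a repellent for growing axons in topographic mapping. Its TPM was 4.96, 8.21 and 5.63 in Fb-Skn (18, 26 and 18 counts), 3.89, 5.03 and 4.43 in Fb-Epn (13, 19 and 15 counts), and 1.10, 2.22 and 0.301 in Fb-Par (4, 7 and 1 counts). Every Fb-Par library was below every other library, and Fb-Epn and Fb-Skn overlapped. The perineurial marker sum was also lowest and the pericyte and smooth muscle sum highest in Fb-Par. Single markers of both lists went the other way, as *Cldn1* was highest in Fb-Par and *Des* highest in Fb-Epn. The part of these cell types in the *Efna5* levels was not tested. Fb-Skn exceeded Fb-Par 5.67-fold (95% interval 2.78 to 11.6, log2 fold change of Fb-Par against Fb-Skn -2.50, standard error 0.48, adjusted p = 4.4e-04, edgeR), so that *Efna5* was a DE gene in this comparison. The fold of Fb-Skn over Fb-Epn was 1.54, with an interval of 0.861 to 2.74 (adjusted p = 0.19, edgeR). Fb-Epn exceeded Fb-Par 3.70-fold (1.76 to 7.74, log2 fold change 1.89, standard error 0.50, adjusted p = 0.0057, edgeR). These differences rest on 12 counts in Fb-Par. When each library was left out in turn, the adjusted p of Fb-Epn against Fb-Par rose above 0.01 in 5 of 9 fits, those without any one Fb-Epn library or without Fb-Par library 1 or 3, with a highest value of 0.026. Without Fb-Par library 2 the log2 fold change was 2.59 for Fb-Epn against Fb-Par and -3.21 for Fb-Par against Fb-Skn.

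*Efna1*, *Efna3* and *Efna4* lie together on the minus strand of chromosome 2 of rn6, within 71384 bases. *Efna1* spans 188588796 to 188596222, *Efna3* 188637852 to 188645196 and *Efna4* 188655912 to 188660179. *Efna4* (ENSRNOG00000020588), which encodes ephrin-A4, was the ligand with the highest level in every library. Its TPM was 12.2, 11.9 and 10.0 in Fb-Epn, 9.15, 11.001 and 9.40 in Fb-Par, and 13.2, 11.8 and 11.01 in Fb-Skn. The ranges of Fb-Epn overlap with both others, and Fb-Par lay just under Fb-Skn, which exceeded it 1.36-fold (95% interval 1.08 to 1.71) without being called (adjusted p = 0.024, edgeR). For Fb-Epn against Fb-Skn the fold was 0.858 (0.685 to 1.07), and against Fb-Par it was 1.16 (0.926 to 1.46), so that the intervals reach 1.46-fold above Fb-Epn for Fb-Skn and 1.46-fold above Fb-Par for Fb-Epn.

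*Efna1* (ENSRNOG00000020573), a ligand known to be induced by inflammatory cytokines in endothelium, had a TPM of 6.74, 5.85 and 6.53 in Fb-Epn, 4.63, 4.94 and 5.74 in Fb-Par, and 6.69, 5.06 and 4.89 in Fb-Skn. The folds were 1.04 (95% interval 0.763 to 1.41) for Fb-Epn against Fb-Skn, 1.26 (0.923 to 1.71) for Fb-Epn against Fb-Par and 0.825 (0.603 to 1.13) for Fb-Par against Fb-Skn, with adjusted p of 0.85, 0.21 and 0.28 (edgeR). The Fb-Epn libraries all lay above the Fb-Par libraries, and Fb-Skn overlapped both. *Efna2* (ENSRNOG00000016203, chromosome 7, 12382636 to 12393266) had 7 to 23 counts and 1.25 to 3.89 TPM per library, and its 3 types overlapped throughout. Its interval for Fb-Epn against Fb-Skn was 0.587 to 1.70, so that changes within this range are not excluded at this depth. *Efna3* (ENSRNOG00000057322) had 4 to 21 counts per library, with the highest value of 5.55 TPM in Fb-Par library 1 and 1.53 and 1.16 TPM in the other Fb-Par libraries. The summed TPM of the 5 ligands was 26.5 ± 1.96 in Fb-Epn against 20.9 ± 2.13 in Fb-Par and 29.4 ± 0.556 in Fb-Skn (SD, n = 3 each). *Efna4* made up 42.8%, 47.4% and 40.8% of this sum on average, and *Efna5* 16.8%, 5.64% and 21.3%.

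**Figure D3:**
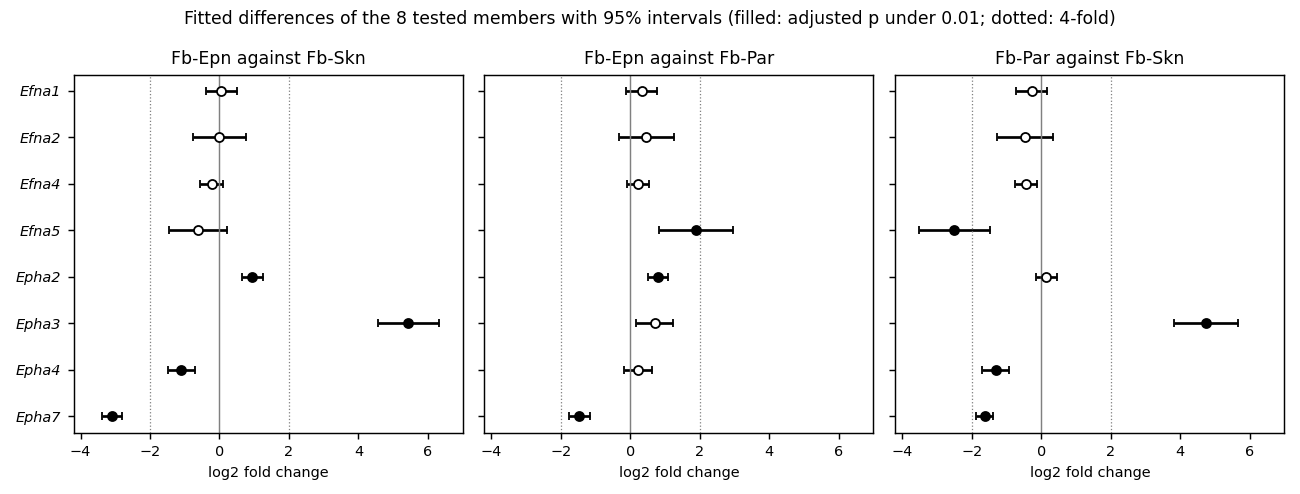
Log2 fold changes of the 8 tested members in the 3 comparisons, with approximate 95% intervals derived from the F statistic of edgeR. Filled points have an adjusted p under 0.01 and dotted lines mark a 4-fold change. The receptors *Epha3* and *Epha7* lie on opposite sides of 0 against Fb-Skn, and the intervals of *Efna1* and *Efna2* include 0 in each panel.

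The 3 members that were DE genes in any comparison are shown by the 250 bases before their RefSeq start site, as a view of the DNA in front of the genes with the largest differences. The sequences are from the RefSeq table of the GRCr8 build, while the counts were made on rn6, and which start site these cells use was not measured. Capitals mark GGGCGG or its reverse complement CCGCCC, the core of the GC box.
*Epha7* (GRCr8 chr5:47771643-47771892, plus strand): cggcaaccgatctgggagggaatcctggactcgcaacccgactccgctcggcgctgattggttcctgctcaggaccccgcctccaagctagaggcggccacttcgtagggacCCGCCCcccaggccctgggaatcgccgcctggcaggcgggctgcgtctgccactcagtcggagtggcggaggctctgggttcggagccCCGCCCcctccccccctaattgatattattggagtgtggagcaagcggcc
*Epha3* (GRCr8 chr11:14920426-14920675, minus strand): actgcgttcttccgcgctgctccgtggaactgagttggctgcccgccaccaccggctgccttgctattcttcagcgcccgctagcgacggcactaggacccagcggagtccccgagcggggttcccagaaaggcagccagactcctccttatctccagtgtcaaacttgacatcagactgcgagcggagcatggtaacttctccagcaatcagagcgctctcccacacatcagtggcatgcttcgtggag
*Efna5* (GRCr8 chr9:110042188-110042437, minus strand): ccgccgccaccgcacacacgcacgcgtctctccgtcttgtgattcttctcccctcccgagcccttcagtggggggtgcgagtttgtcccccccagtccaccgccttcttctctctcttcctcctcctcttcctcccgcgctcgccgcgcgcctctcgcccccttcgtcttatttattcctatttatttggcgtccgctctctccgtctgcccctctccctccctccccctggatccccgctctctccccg
The GC box core was found 2 times in the *Epha7* window, on either strand, and in neither of the others, and 30.5% of the 33469 windows of this length hold it on either strand. Of the 9 members with an entry (all but *Epha4*), 5 hold it. TATAAA, the TATA box core, was in none of the 9 windows, on either strand, and in 12.9% of all windows. The CpG count was 20 in *Epha7*, 17 in *Epha3* and 23 in *Efna5*, and ranged from 5 to 31 over the 9 members, against a median of 5 over all windows. All 3 windows shown lie above that median.

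The genes with the most similar profiles were found by the root mean square difference of centred log2(TPM + 1) over the 9 libraries, for the 3 members with the largest spread between type means. Nearest to *Epha7* were *Fbln5*, an elastic fibre protein, *Mmp17*, a metalloproteinase anchored in the membrane, and *Slc6a6*, a taurine transporter, at 0.158, 0.174 and 0.183. *Fbln5* averaged 95.5 ± 0.921 TPM in Fb-Epn, compared with 207 ± 6.98 in Fb-Par and 567 ± 7.74 in Fb-Skn (SD, n = 3 each). Nearest to *Epha3* were *Ptprf*, a receptor tyrosine phosphatase, *Cadm3*, a cell adhesion molecule, and *Dusp6*, a phosphatase of ERK, at 0.120, 0.142 and 0.145. *Cadm3* had 8.50 ± 0.571, 4.89 ± 0.456 and 0.800 ± 0.271 TPM in the same order of types (SD, n = 3 each). *Ptprf* had 33.3 ± 1.27, 20.2 ± 1.05 and 6.20 ± 0.108 TPM and *Dusp6* 44.2 ± 0.888, 35.2 ± 2.28 and 10.97 ± 0.262 TPM (SD, n = 3 each). The log2(TPM + 1) scale compresses the changes of low genes, and the ratio of their mean levels to those in Fb-Skn was smaller than for *Epha3*. The nearest genes to *Efna5* were *Kcnk12*, *Lrrc8e* and *Ror2*, a receptor for *Wnt5a*, at 0.301, 0.324 and 0.338, larger distances than for the receptors. *Efna5* had 1 to 26 counts per library, and counting noise adds to its distance from any gene. All 9 libraries fall into 3 types, so the likeness of profiles rests mainly on 3 levels.

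Genes of the signalling path around EphA were followed in 6 hand-written lists of 48 genes, of which 43 were tested. In Fb-Epn against Fb-Skn, 20 were higher and 9 lower, in Fb-Epn against Fb-Par 9 were higher and 14 lower, and in Fb-Par against Fb-Skn 19 were higher and 4 lower (edgeR, adjusted p under 0.01). Of all tested genes, 23.0% were higher and 20.9% lower in the first comparison, 20.2% and 18.6% in the second, and 23.2% and 22.4% in the third. The median log2 fold change of the 43 genes was 0.24, -0.10 and 0.13, against -0.0028, -0.00018 and -0.012 over all tested genes. By list, of 7 cytoplasmic tyrosine kinases, 2 were called in each comparison. Of 10 adaptors and scaffolds, 6, 4 and 6 were called in the 3 comparisons. Of 8 phosphatases, ubiquitin ligases and proteases, 6, 7 and 5 were called, and of 4 tested partners of ephrin A in its own cell, 2, 3 and 3.

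The genes with the largest changes against Fb-Skn were the same 3 in both nerve-derived types. *Ngfr*, the p75 neurotrophin receptor that can act beside ephrin A in axons and is also abundant in Schwann cells, averaged 31.6 ± 2.102 TPM in Fb-Epn against 63.7 ± 1.93 in Fb-Par and 0.713 ± 0.0722 in Fb-Skn (SD, n = 3 each). Both nerve-derived types were higher, Fb-Epn by a log2 fold change of 5.31 (adjusted p = 2.4e-14) and Fb-Par by 6.31 (adjusted p = 1.3e-15, edgeR). The Schwann cell marker sums above had the same order of types, and their part in this difference was not tested. *Arap3*, a GTPase-activating protein for Arf, was higher by log2 fold changes of 4.39 and 5.04, and *Tiam1*, an exchange factor for Rac, by 3.36 and 2.98 (edgeR, adjusted p at most 5.5e-08). *Tiam1* had 8.59 ± 0.648 TPM in Fb-Epn, compared with 6.68 ± 0.685 in Fb-Par and 0.763 ± 0.197 in Fb-Skn (SD, n = 3 each). *Arap3* had the order of types of the Schwann cell marker sums, and *Tiam1* that of the macrophage and endothelial sums, whose part was not tested. Among 8 tested exchange factors and GTPase-activating proteins, all 8 were called in Fb-Epn against Fb-Skn, with 6 higher and 2 lower. Of the same 8, 4 were called in Fb-Epn against Fb-Par and 6 in Fb-Par against Fb-Skn, beside 43.9%, 38.8% and 45.6% called over all tested genes in the 3 comparisons.

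Fb-Epn had lower levels of *Chn1*, *Vav3* and *Rnd3* than Fb-Skn. *Chn1* encodes chimaerin 1, a GTPase-activating protein for Rac that acts below EphA4. Its mean level was 4.95 ± 0.0958 TPM in Fb-Epn against 11.8 ± 0.183 in Fb-Par and 13.6 ± 0.990 in Fb-Skn (SD, n = 3 each). The log2 fold change was -1.60 against Fb-Skn (adjusted p = 6.7e-09) and -1.24 against Fb-Par (adjusted p = 1.4e-07, edgeR), and Fb-Par against Fb-Skn gave -0.36 (adjusted p = 0.0047, edgeR). *Rnd3* had 82.7 ± 3.57 TPM in Fb-Epn, compared with 173 ± 7.004 in Fb-Par and 168 ± 4.60 in Fb-Skn (SD, n = 3 each). It was lower in Fb-Epn by log2 fold changes of -1.16 against Fb-Skn and -1.05 against Fb-Par (edgeR, adjusted p at most 4.9e-11). *Vav3*, an exchange factor recruited by Eph receptors, was near the threshold with a log2 fold change of -1.24 (adjusted p = 0.0097, edgeR) at type means of 0.628 to 1.36 TPM.

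Of the 9 signalling genes that Fb-Epn had at a higher level than Fb-Par, the 3 with the largest changes were *Anks1b*, a scaffold related to Odin, which binds Eph receptors, *Adam12*, a metalloproteinase, and *Ptpro*, a phosphatase that acts on Eph receptors. *Adam12* was abundant, with 510 ± 29.7 TPM in Fb-Epn against 146 ± 4.09 in Fb-Par and 157 ± 14.1 in Fb-Skn (SD, n = 3 each), and its log2 fold change was 1.82 (adjusted p = 1.1e-12, edgeR). *Anks1b* had a log2 fold change of 2.77 (adjusted p = 1.2e-04) and *Ptpro* one of 1.46 (adjusted p = 0.0062, edgeR), with type means of 0.186 to 1.31 TPM for both. *Ret*, the GDNF receptor kinase that cooperates with ephrin A in motor axons, had the largest change in the other direction, at -3.32 (adjusted p = 5.4e-06, edgeR), with 1.07 ± 0.176 TPM in Fb-Par and 0.102 ± 0.00678 in Fb-Epn (SD, n = 3 each). In Fb-Par against Fb-Skn, the largest decreases among the 4 lower genes were those of *Chn1*, given above, and of *Anks1b*, at -2.39 (adjusted p = 5.3e-04), and *Ptpn1*, a phosphatase of receptor kinases, at -0.46 (adjusted p = 4.2e-05, edgeR). Of the other Eph receptors and the ephrin B ligands, 11 were analysed and 7 were tested, and 5, 5 and 6 of them were called in the 3 comparisons, again beside 43.9%, 38.8% and 45.6% of all tested genes.

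**Figure D4:**
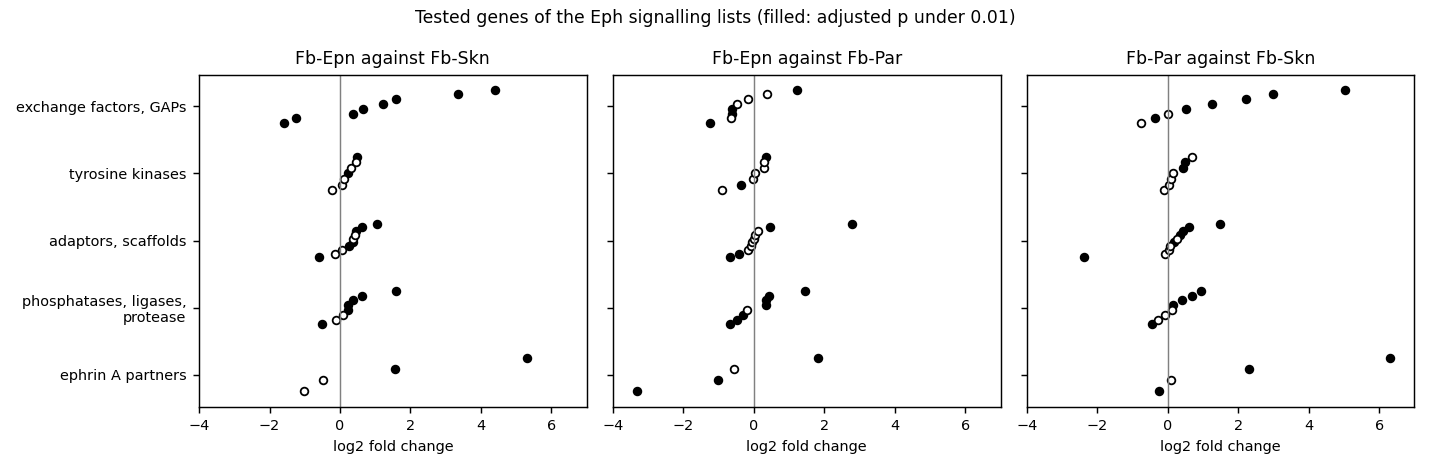
Log2 fold changes of the tested signalling genes of 5 lists (rows) for the 3 comparisons, 1 point per gene, filled at an adjusted p under 0.01 in edgeR. The points farthest to the right against Fb-Skn are *Ngfr* (5.31 and 6.31) and *Arap3* (4.39 and 5.04).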

How the data were processed

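The authors trimmed paired-end reads with Trimmomatic (0.38, per the submitters' processing notes), aligned them with HISAT2 (2.1.0) to rn6 and deposited a table of raw counts per gene. featureCounts 1.6.3 is listed in the notes, and its strand setting and annotation release are not given in the sources used here. The authors also deposited TPM, scaled to the same total in each library, and FPKM, which was not used. Labels gave each library its type. Counts were fitted with R 4.3.3 and edgeR 4.0.16 (TMM, default filter, quasi-likelihood F test), with p-values adjusted over all 13273 tested genes of a comparison, and TPM gave levels. edgeR's test returns no standard error or interval. Those given here were derived from its log2 fold change and F statistic, and they are approximate, above all at low counts. The thresholds have the size the study used, but here the p is from the count model and adjusted over all genes. DESeq2 1.42.0 and limma 3.58.1 served as alternatives. Between libraries of a type, the chi-square per gene was 3.31 to 5.48, above the 1 of counting noise alone. The common coefficient of variation was 8.25%. Besides 2 small RNA genes with 0 counts, no listed gene overlapped a member. Named were all members, the 3 most changed signalling genes per direction, and the 3 genes nearest in profile. The counts of 1 signalling list by itself and 1 marker gene are not reported here. Members and lists were chosen with earlier results of these data known. With 3 libraries against 3, the smallest two-sided p that exact permutation allows for 1 gene is 0.1. Before use, the edgeR fit was tested on simulated counts, and the DESeq2 and limma fits were not. Changes in genes with counts as low as those of *Efna2* and *Efna5* were not simulated. Tables and figures were made with Python 3.11.15, pandas 2.3.3 and matplotlib 3.10.9.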

Additional observations from a re-analysis of the deposited data

How the results depend on the processing

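Of 24 member differences, 20 kept their direction and side of the threshold in all 17 alternatives. *Efna2* and *Efna1* in Fb-Epn against Fb-Skn, which were not called, changed sign around 0. The log2 fold change of *Efna2* was 0.01 with RLE normalization and in DESeq2 (0.0089 and 0.0098), 0.087 with library size only, 0.081 and 0.10 with limma on log2(TPM + 1) and log2(TPM + 0.1), and 0.0025 with only the 2 types compared. Leaving out each library gave -0.29 to 0.16 for *Efna2* and -0.035 to 0.23 for *Efna1*. The other 2 are *Epha3* and *Efna5* in Fb-Epn against Fb-Par, described above. The number of members that were DE genes in Fb-Epn against Fb-Par was 1 in place of 0 with limma on log2(TPM + 0.1), and 0 to 1 with each library left out. In Fb-Par against Fb-Skn it was 0 in place of 2 with limma on log2(TPM + 1), a scale that understates the change of low genes. On TPM the median of all tested genes shifted by 0.13 and 0.14 in Fb-Epn against Fb-Skn with the 2 pseudocounts. In Fb-Par against Fb-Skn that median was 0.12 and 0.14. The deviations of same-numbered libraries of different types had correlations of -0.080 to 0.020, against -0.045 to 0.089 for other pairs. No shared effect of the number was seen, but this cannot show whether libraries were paired by rat or culture. With the replicate block, 4, 3 and 4 members and 26, 21 and 23 signalling genes were called, against 29, 23 and 23 without it. Precision is limited by depth for *Efna2*, *Efna3* and *Efna5*, with at most 26 counts per library, and for *Epha3* in Fb-Skn.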
